A study of Mus musculus with 12 samples.

Results

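The genes described here are 36 components of the autophagy machinery, listed by known roles in autophagy, with earlier results of these data known. They are 36 of the 36144 genes in the expression table, and all 36 passed the filter on low values, which kept 11544 genes that reached 1 TPM in 3 or more libraries. They were grouped by role into initiation (6 genes), nucleation with the lipid-transfer and lipid-reading factors of the early membrane (10), conjugation (10), the LC3 family (5), receptors (4) and the transcription factor Tfeb. RNA was measured by poly-A sequencing in primary hepatocytes, the main cell type of the liver, from a wild-type (WT) C57/Bl6J mouse, in 12 libraries of 4 groups with 3 libraries each. All cells were kept without serum for 16 h before lysis. The Mock group received no further agent. The FD group received forskolin at 10 µM, which activates adenylate cyclase and so increases cAMP, together with the glucocorticoid dexamethasone at 1 µM, both over 5 h, a mixture used to mimic the hormones of fasting. The FDI group received FD with insulin given 1 h earlier, at 100 nM by the series' design, while the treatment protocol names a lower dose as well. The FDMn group received FD after 16 h with 6 µM MnCl2. No group received insulin or manganese without FD, so what these agents do in cells without FD was not measured. Manganese and insulin were also present for different times, so the agent and the length of exposure cannot be told apart. The labels speak of a single mouse and do not say whether the libraries come from separate preparations, so the spread behind each p-value is that among these libraries and could be purely technical.

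Autophagy encloses cytoplasm, organelles or protein aggregates in a double membrane that fuses with the lysosome. The ULK1 kinase complex starts the process when nutrients are scarce and is held in check by mTORC1, which insulin activates; a lipid kinase complex around VPS34 and Beclin 1 then marks the site, and a pair of ubiquitin-like systems couple LC3 and GABARAP proteins to the growing membrane, where receptors bind them together with cargo. In the liver autophagy supplies amino acids and lipids in fasting, and many of its genes are targets of FOXO and TFEB transcription factors. RNA levels do not measure autophagic flux, and several of these proteins are controlled mainly by phosphorylation, lipidation and degradation.

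Each TPM value (a transcript's share of its library, on a fixed total) is scaled for transcript length, so levels can be set side by side between genes, but it gives no absolute amount. Each library held between 10900 and 11161 genes at 1 TPM or more, and log2 values of replicate libraries correlated across genes with r between 0.981 and 0.991. All 6 hepatocyte markers were present at a summed level of 26880 to 37047 TPM per library. Markers of other liver cells were low: 3 of 10 Kupffer cell and macrophage markers passed the filter (sums of 3.94 to 8.23 TPM, lowest in Mock and highest in FDMn), 4 of 7 endothelial markers (15.5 to 16.3 TPM in Mock and 19.1 to 27.8 in FD), 2 of 7 stellate markers and none of 4 lymphocyte markers. Of 5 cholangiocyte markers only Cldn4 and Sox9 passed, and their summed list stood at 196 to 236 TPM in Mock and 74.8 to 83.4 in FD. The part of these markers in the results below was not tested. In bulk RNA, fewer cells of a type and less RNA per cell cannot be told apart.

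The FD libraries held more RNA of Ulk1, Rb1cc1 and Atg13, which encode parts of the ULK1 complex, of the lipid kinase subunit Uvrag and of the mitophagy receptor Bnip3l than the Mock libraries, and 0.441 times as much Sqstm1, the most abundant autophagy transcript. Of the 36 genes 13 rose and 4 fell at an adjusted p under 0.05 (limma on log2(TPM + 1), Benjamini-Hochberg over all genes tested). Among all genes tested 11.2% rose and 29.9% fell (41.1% together), and the median log2 change was 0.03 for the 36 genes and -0.15 for all genes. When the libraries were rescaled by the median of ratios, which moved the median of all genes to -0.01, 16 of the 36 rose and 3 fell, while the calls over all genes shifted from 1296 higher and 3447 lower to 2018 higher and 2009 lower. The FD changes below are therefore best read against a median of -0.15.

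With insulin Ulk1, Rb1cc1, Atg13 and Atg101, all of the ULK1 complex, fell. Between FDI and FD 12 of the 36 genes fell and 4 rose, against 4.35% lower and 10.2% higher among all genes (14.5% together), with a median log2 change of -0.05 for the 36 genes and 0.04 for all. Over all genes 1172 rose and 502 fell, or 832 and 714 after median-of-ratios scaling, where 13 of the 36 fell and 3 rose. The count of 4 rising genes was 2 without FD replicate 2 and 1 without FDI replicate 3. Between FDMn and FD 6 of the 36 genes fell and 2 rose, against 7.9% lower and 7.22% higher among all genes (15.1% together), with medians of -0.10 and 0.00. These counts rest on single libraries: the 6 falling genes became 2 without FD replicate 1 and 1 without FDMn replicate 1, and the 2 rising genes became 1 when either FD replicate 1 or 2, or FDMn replicate 1, was left out. Between FDMn and FDI, the direct comparison of the added agents, 7 of the 36 were higher in FDMn and 1 was lower, against 5.68% higher and 11.9% lower among all genes, 17.6% together (656 and 1375, or 855 and 963 after median-of-ratios scaling), with medians of 0.01 and -0.04. The FD libraries enter the first 3 comparisons, so these are not independent. In all, 22 of the 36 genes passed the test in at least 1 comparison and 14 in none.

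**Figure D1:**
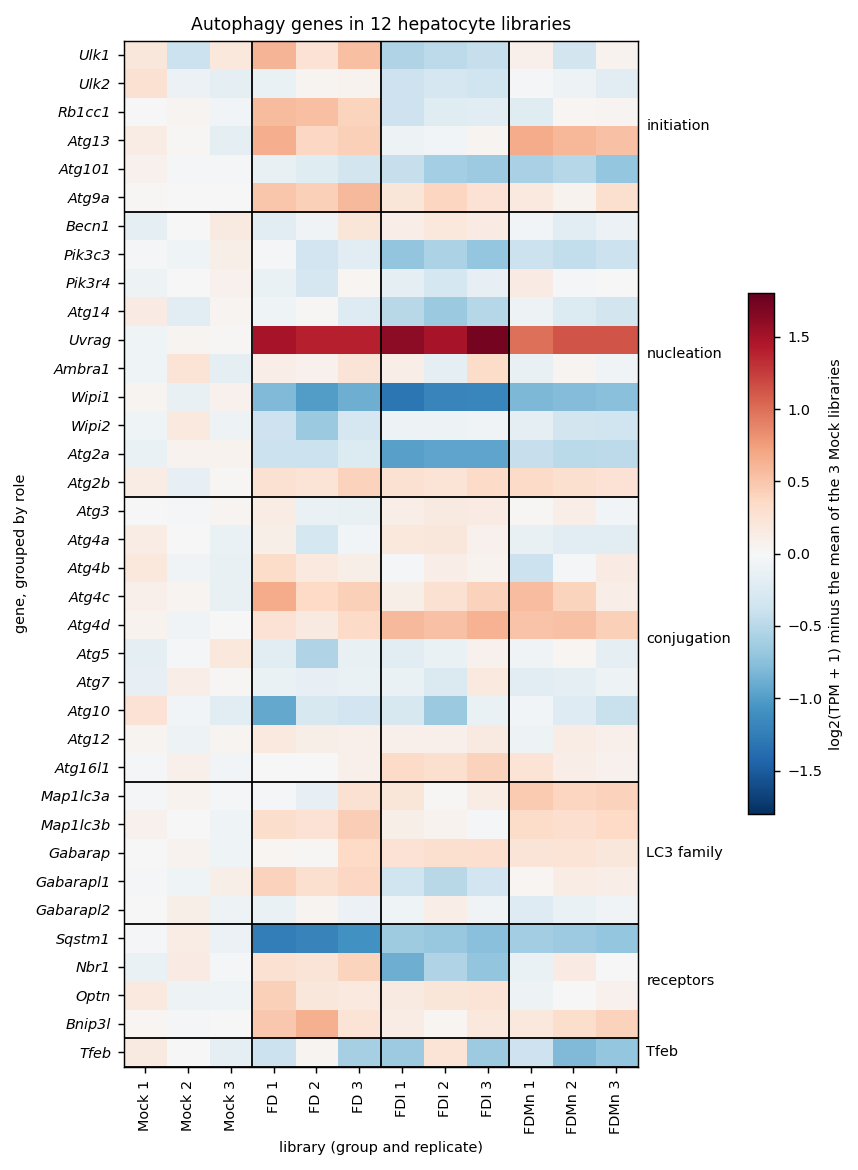
Each row is one of the 36 genes, ordered by role, and each column 1 of the 12 libraries; colour gives log2(TPM + 1) minus the mean of the 3 Mock libraries, red above and blue below. Uvrag is red in all 9 FD, FDI and FDMn libraries, Sqstm1 and Wipi1 are blue in all 9, and the initiation genes Ulk1 and Rb1cc1 are red in the FD libraries.

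The levels of the 36 genes differed widely. Averaged over the group means, Sqstm1 stood at 1250.4 TPM, followed by Gabarap at 274, Bnip3l at 192, Gabarapl1 at 168, Map1lc3b at 129 and Becn1 at 80.3 TPM. At the other end were Atg14 at 5.66, Atg10 at 3.07 and Tfeb at 2.58 TPM, and 29 of the 36 genes averaged at least 10 TPM. Sqstm1 alone made up 56.2% ± 1.91 (SD, n = 3) of the summed TPM of the 36 genes in Mock, 33.1% ± 0.866 in FD, 43.8% ± 1.39 in FDI and 42.8% ± 0.973 in FDMn. The sum of the other 35 genes ran the opposite way: it was 1447 ± 9.93 TPM in Mock, 1658 ± 49.1 in FD, 1474 ± 26.4 in FDI and 1565 ± 24.2 in FDMn. The sums by role differed in this: nucleation stood at 229 ± 11.4 TPM in Mock and 222 ± 17.6 in FD, and conjugation at 191 ± 1.55 and 192 ± 11.9, while the initiation and LC3 family sums, given below, were higher in FD.

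Promoter sequences are shown for the 6 genes with the largest called changes that had an entry in the RefSeq promoter table (build GRCm38.p6), because these are the genes whose RNA the treatments moved most. Each window is the 250 bases before a start site of that table, 5′ to 3′ on the gene's own strand, with matches to the motifs named below in capitals. These start sites can differ from the gene coordinates given below. By those coordinates the Wipi1 window lies inside the gene (chr11:109573331-109611967), as do the windows of Atg14, Atg4b, Wipi2 and Atg7. The windows of Sqstm1, Ulk1 and Gabarapl1 reach into their genes.
Uvrag, chr7:99141145-99141394, minus strand: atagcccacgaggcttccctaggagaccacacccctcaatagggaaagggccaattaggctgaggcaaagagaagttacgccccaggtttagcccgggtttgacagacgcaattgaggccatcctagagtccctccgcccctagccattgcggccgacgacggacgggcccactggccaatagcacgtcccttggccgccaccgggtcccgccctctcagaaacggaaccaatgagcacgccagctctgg
Sqstm1, chr11:50210821-50211070, minus strand: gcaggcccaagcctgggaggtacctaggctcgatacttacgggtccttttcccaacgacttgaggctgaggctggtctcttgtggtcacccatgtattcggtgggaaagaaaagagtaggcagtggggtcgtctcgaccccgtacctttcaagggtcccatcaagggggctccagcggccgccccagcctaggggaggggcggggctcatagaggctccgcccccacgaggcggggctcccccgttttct
Nbr1, chr11:101551857-101552106, plus strand: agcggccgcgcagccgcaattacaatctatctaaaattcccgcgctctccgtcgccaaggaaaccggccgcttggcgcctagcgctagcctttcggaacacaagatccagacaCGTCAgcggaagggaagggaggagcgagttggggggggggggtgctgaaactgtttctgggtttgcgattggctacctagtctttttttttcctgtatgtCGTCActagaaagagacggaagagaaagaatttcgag
Ulk1, chr5:110810082-110810331, minus strand: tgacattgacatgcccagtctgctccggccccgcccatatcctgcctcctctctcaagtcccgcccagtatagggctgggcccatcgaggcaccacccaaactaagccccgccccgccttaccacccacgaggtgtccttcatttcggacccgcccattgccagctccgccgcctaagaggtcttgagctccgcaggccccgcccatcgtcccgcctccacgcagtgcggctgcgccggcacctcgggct
Wipi1, chr11:109611390-109611639, minus strand: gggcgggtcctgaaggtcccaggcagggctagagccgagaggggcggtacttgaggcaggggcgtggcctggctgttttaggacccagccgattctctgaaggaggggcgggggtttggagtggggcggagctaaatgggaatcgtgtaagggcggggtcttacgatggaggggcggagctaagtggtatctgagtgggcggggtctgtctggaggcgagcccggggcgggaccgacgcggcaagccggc
Gabarapl1, chr6:129532942-129533191, plus strand: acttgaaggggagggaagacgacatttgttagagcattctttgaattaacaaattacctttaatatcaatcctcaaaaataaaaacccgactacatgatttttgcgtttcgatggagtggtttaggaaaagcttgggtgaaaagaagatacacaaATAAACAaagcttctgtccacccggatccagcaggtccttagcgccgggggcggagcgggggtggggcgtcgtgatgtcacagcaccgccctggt
Of the 36 genes 29 had a window among those searched, and Rb1cc1, Becn1, Pik3c3, Atg12, Atg16l1, Map1lc3a and Bnip3l had none there. The search did not cover the whole genome, and the part that carries Pik3c3 and Atg12 was left out. Whether these genes have an entry was therefore not tested. The shares of all genes given below rest on the same windows. In the first Nbr1 window the capitals mark TGACG, the core of the cAMP response element, found at 2 places on the opposite strand as CGTCA; a second Nbr1 start site further downstream had no such match. TGACG was present in 9 of the 29 genes (31.0%; Ulk2, Atg13, Pik3r4, Atg2b, Atg4a, Atg10, Map1lc3b, Gabarapl2 and Nbr1) and in 19.8% of all 27025 genes with a window. In the Gabarapl1 window the capitals mark ATAAACA, a forkhead-type sequence that was added to the search after the windows had been seen. It was present in 3 of the 29 genes (10.3%; Ambra1, Atg4a and Gabarapl1) and in 4.78% of all genes. The Atg4a matches to TGACG and ATAAACA both lie in its upstream window (chrX:140953595-140953844). The Atg4a window just before the gene start (chrX:140956657-140956906) had no match. The E-box CACGTG, the centre of the CLEAR element that TFEB binds, was present in Atg3, Atg5 and Atg7 (10.3%, against 6.86% of all genes), none of which passed the test in any comparison over all libraries. The Atg7 window (chr6:114670846-114671095) lies well inside the Atg7 gene, which starts at 114643097 by its gene coordinates. No window of the 29 held the full CLEAR element around that E-box (0.27% of all genes), the full cAMP response element TGACGTCA (1.77%), the FOXO sequence GTAAACA (3.54%), the glucocorticoid response element (0.44%) or the amino acid response element core TGATGNAAN (3.89%). Both strands were searched, TGACG also lies inside TGACGTCA, and CACGTG inside the CLEAR element. A match describes letters and not binding, and elements outside these windows were not searched.

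In the initiation group 4 of 6 genes passed the test with FD, 4 of 6 with insulin and 4 of 6 with manganese. Among all genes tested these shares were 41.1%, 14.5% and 15.1%. The summed TPM of the 6 genes was 121 ± 8.34 in Mock, 156 ± 8.69 in FD, 100.4 ± 2.65 in FDI and 122 ± 3.31 in FDMn (SD, n = 3). Ulk1, Rb1cc1, Atg13 and Atg9a rose with FD and none fell. With insulin Ulk1, Rb1cc1, Atg13 and Atg101 fell, and with manganese Ulk1, Rb1cc1, Atg101 and Atg9a fell. Left-out libraries moved the manganese count from 4 to 2 (without FD replicate 1, FDMn replicate 2 or FDMn replicate 3) or 1 (without FDMn replicate 1).

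Ulk1 (chr5:110784488-110810097, minus strand, GRCm38), the kinase that starts autophagosome formation, stood at 33.6, 22.1 and 33.2 TPM in Mock, 44.9, 34.95 and 43.0 in FD, 19.7, 20.8 and 21.5 in FDI, and 31.2, 23.1 and 30.4 in FDMn. Every FD library lay above every Mock library, and every FDI library below all others. Ulk1 rose 1.38-fold with FD (log2 change 0.47 ± 0.16 SE, adjusted p = 0.033), a call that ended without Mock replicate 2, FD replicate 1 or FD replicate 3 (adjusted p = 0.085 to 0.13). In FDI it fell to 0.505 times the FD mean (-0.95 ± 0.16, adjusted p = 0.0021), and in FDMn to 0.688 times (-0.53 ± 0.16, adjusted p = 0.044). The FDMn call ended when FD replicate 1, FD replicate 3 or any of the 3 FDMn libraries was left out (adjusted p = 0.062 to 0.16). The difference between FDMn and FDI was 0.42 ± 0.16 and did not pass the test (adjusted p = 0.094), but passed when only these 2 groups were fitted (adjusted p = 0.034). Its paralog Ulk2 stood at 6.59 to 10.8 TPM over all libraries and passed in no comparison, with a log2 change of 0.00 ± 0.12 for FD and -0.34 ± 0.12 for insulin (adjusted p = 0.07), or -0.39 after median-of-ratios scaling, where it passed (adjusted p = 0.044).

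Rb1cc1, which encodes the scaffold FIP200 of the ULK1 complex, stood at 31.0, 32.0 and 30.0 TPM in Mock, 46.5, 45.7 and 41.3 in FD, 23.8, 26.5 and 26.7 in FDI, and 26.4, 31.7 and 32.0 in FDMn. The FD libraries lay above all others, and FDI below Mock. It rose 1.43-fold with FD (0.51 ± 0.09, adjusted p = 0.00053), fell to 0.577 times the FD mean with insulin (-0.77 ± 0.09, adjusted p = 0.00011) and to 0.675 times with manganese (-0.55 ± 0.09, adjusted p = 0.0012). FDMn and FDI differed by 0.22 ± 0.09, which did not pass (adjusted p = 0.10), although it was 0.28 after quantile normalization (adjusted p = 0.049) and 0.30 without FDMn replicate 1 (adjusted p = 0.036).

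Atg13, a subunit of the complex that mTORC1 phosphorylates, stood at 20.2, 18.6 and 16.3 TPM in Mock, 29.5, 24.0 and 24.9 in FD, 17.1, 17.7 and 18.9 in FDI, and 29.7, 28.3 and 26.8 in FDMn. FDMn overlapped FD and lay above every FDI library. Atg13 rose 1.42-fold with FD (0.48 ± 0.10, adjusted p = 0.0018) and fell to 0.686 times with insulin (-0.51 ± 0.10, adjusted p = 0.0043). With manganese the log2 change was 0.11 ± 0.10 (adjusted p = 0.48), and FDMn was 1.58-fold above FDI (0.63 ± 0.10, adjusted p = 0.00099).

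Atg101, the partner that stabilises ATG13, stood at 20.7, 19.2 and 19.1 TPM in Mock, 17.8, 16.7 and 15.4 in FD, 14.5, 12.5 and 12.1 in FDI, and 12.8, 13.5 and 11.75 in FDMn. FDI and FDMn overlapped each other and lay below FD. The FD change of -0.23 ± 0.09 did not pass (adjusted p = 0.060), whereas Atg101 fell to 0.784 times the FD mean with insulin (-0.33 ± 0.09, adjusted p = 0.03) and to 0.762 times with manganese (-0.37 ± 0.09, adjusted p = 0.018). The insulin call ended without FD replicate 1, FD replicate 2, FDI replicate 2 or FDI replicate 3 (adjusted p = 0.071 to 0.11), and the manganese call without FD replicate 1, FDMn replicate 1 or FDMn replicate 3 (0.052 to 0.073).

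Atg9a, the membrane protein of the vesicles that seed the autophagosome, stood at 13.4, 13.2 and 13.2 TPM in Mock, 19.1, 18.3 and 20.4 in FD, 15.7, 17.6 and 16.0 in FDI, and 15.1, 13.8 and 16.4 in FDMn. Mock lay lowest and FD highest, with no overlap with the rest. It rose 1.45-fold with FD (0.51 ± 0.08, adjusted p = 0.0004) and fell to 0.785 times with manganese (-0.33 ± 0.08, adjusted p = 0.018), a call that ended without FDMn replicate 1 or FDMn replicate 2 (0.057 to 0.079). The insulin change was -0.22 ± 0.08 and did not pass (adjusted p = 0.10). Exons of Atg9a overlap the opposite-strand gene Ankzf1, which stood at 7.39 to 12.002 TPM, and reads of such pairs cannot be told apart here.

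**Figure D2:**
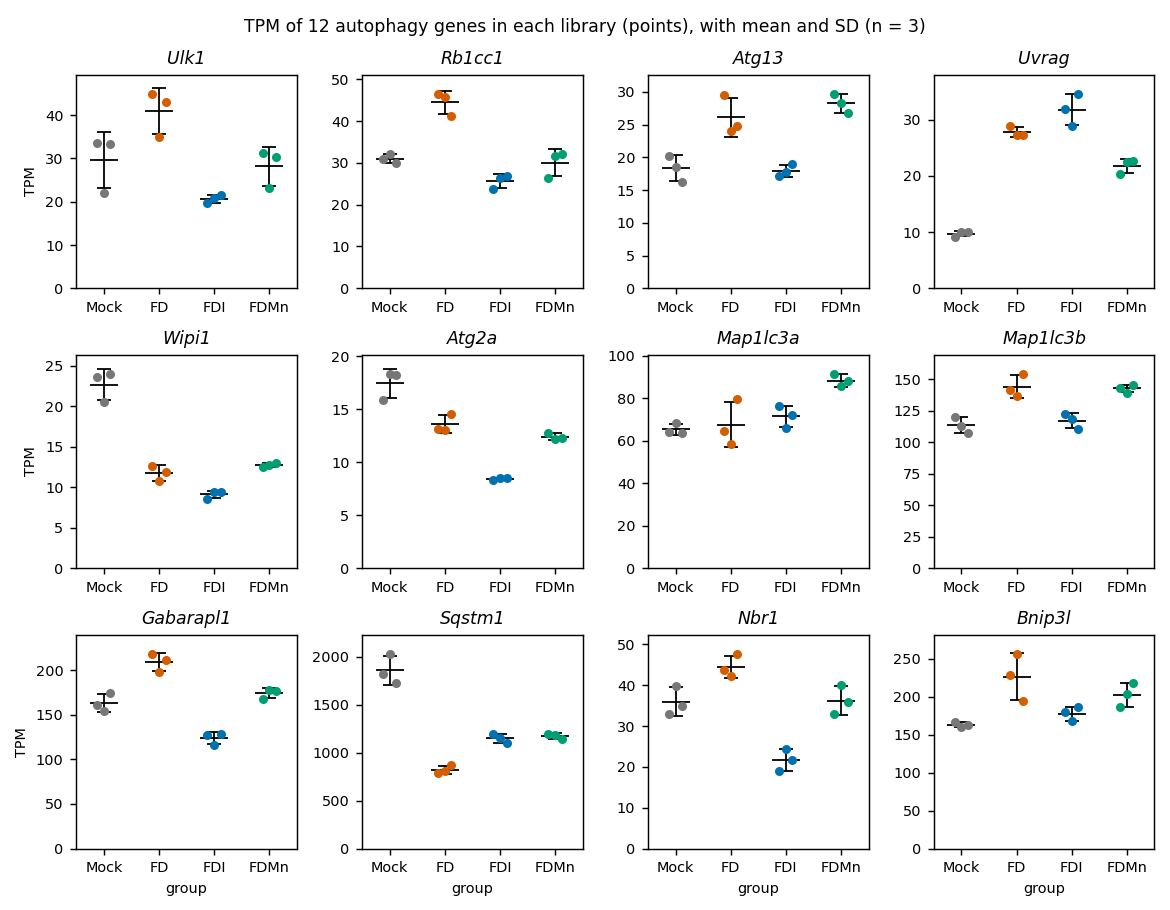
TPM of 12 genes in each library (points) by group, with the mean (bar) and SD of 3 libraries; each axis starts at 0. Ulk1, Gabarapl1 and Nbr1 stand lowest in the FDI libraries, and Rb1cc1 has its lowest mean there, with FDI and FDMn overlapping. Uvrag is lowest in Mock, and Sqstm1 runs from 1858 TPM in Mock to 819.5 in FD.

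Nucleation was split. With FD Uvrag and Atg2b rose while Wipi1, Wipi2 and Atg2a fell, and 5 of the 10 genes did not pass. Among all genes tested 41.1% passed with FD (11.2% rose and 29.9% fell), near the share of these 10. Uvrag (chr7:98885021-99141141, minus strand), a Beclin 1 partner that defines the lipid kinase complex of late autophagy and endosomes, stood at 9.20, 10.1 and 9.95 TPM in Mock, 28.9, 27.3 and 27.3 in FD, 31.9, 28.9 and 34.6 in FDI, and 20.3, 22.4 and 22.6 in FDMn. Every library with FD lay above every Mock library, and FDMn lay below FD and FDI. Uvrag rose 2.86-fold with FD (1.42 ± 0.08, adjusted p = 4.9e-08), the largest rise among the 36 genes. Insulin gave a change of 0.18 ± 0.08 that did not pass (adjusted p = 0.16). Manganese gave a fall to 0.782 times the FD mean (-0.34 ± 0.08, adjusted p = 0.015), a call that ended without FD replicate 1 or FDMn replicate 1 (0.053 to 0.067). FDMn was 0.684 times FDI (-0.52 ± 0.08, adjusted p = 0.00097), and Uvrag was the only one of the 36 genes called lower in FDMn than in FDI, although Becn1, Atg4a and Optn were called lower as well when only these 2 groups were fitted (adjusted p = 0.013, 0.021 and 0.048).

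Atg14, whose product takes the place of UVRAG in the complex of early autophagy, was also measured at low levels. It stood at 7.46, 5.72 and 6.91 TPM in Mock, 6.23, 6.75 and 5.498 in FD, 4.41, 3.83 and 4.37 in FDI, and 6.16, 5.48 and 5.12 in FDMn. FDI lay below all other groups, which overlapped. The FD change was -0.10 ± 0.12 (adjusted p = 0.53), and with insulin Atg14 fell to 0.682 times the FD mean (-0.46 ± 0.12, adjusted p = 0.024), a call that ended without FD replicate 1, FD replicate 2, FDI replicate 2 or FDI replicate 3 (0.054 to 0.085). Within each library the ratio of Uvrag to Atg14 was 1.48 ± 0.269 in Mock, 4.55 ± 0.464 in FD, 7.56 ± 0.344 in FDI and 3.93 ± 0.575 in FDMn (mean ± SD, n = 3). The ratio of these alternative partners was highest in the FDI libraries, without overlap with the other groups.

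Pik3c3, the catalytic subunit VPS34, stood at 9.04, 8.81 and 10.1 TPM in Mock, 9.13, 7.13 and 7.92 in FD, 5.31, 5.93 and 5.36 in FDI, and 6.86, 6.56 and 6.87 in FDMn. FDI lay below every other group. It fell to 0.687 times the FD mean with insulin (-0.47 ± 0.10, adjusted p = 0.0097) and passed in no other comparison. The insulin call of Pik3c3 ended when only the FDI and FD groups were fitted (adjusted p = 0.054). The other core subunits were steadier: Becn1 (Beclin 1) ranged from 69.1 to 92.9 TPM, Pik3r4 (the VPS15 scaffold) from 5.79 to 8.42, and the Beclin 1 regulator Ambra1 from 20.2 to 29.1, and none passed in any comparison over all libraries. The Becn1 change with FD was -0.02 ± 0.10 (adjusted p = 0.91). Without FD replicate 3 Becn1 passed as higher with insulin (0.29, adjusted p = 0.046).

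The WIPI proteins read the lipid that VPS34 makes, and ATG2 proteins transfer lipid into the growing membrane. Wipi1 (chr11:109573331-109611967, minus strand) stood at 23.6, 20.5 and 24.0 TPM in Mock, 12.7, 10.8 and 11.9 in FD, 8.57, 9.37 and 9.44 in FDI, and 12.5, 12.7 and 13.0 in FDMn. Mock was highest and FDI lowest, with no overlap with the other groups, while FD and FDMn overlapped. Wipi1 fell to 0.52 times the Mock mean with FD (-0.89 ± 0.09, adjusted p = 6.7e-06) and further to 0.774 times the FD mean with insulin (-0.33 ± 0.09, adjusted p = 0.024), the latter call ending without FD replicate 1, FDI replicate 1 or FDI replicate 2 (0.052 to 0.086). FDMn was 1.39-fold above FDI (0.44 ± 0.09, adjusted p = 0.0051).

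Wipi2, the family member that recruits ATG16L1, stood at 39.8, 47.5 and 39.5 TPM in Mock, 32.3, 26.2 and 34.0 in FD, 39.5, 39.5 and 40.1 in FDI, and 37.5, 33.1 and 32.7 in FDMn. FD lay below Mock and FDI, and FDMn overlapped FD. It fell to 0.729 times the Mock mean with FD (-0.45 ± 0.10, adjusted p = 0.0041). With insulin it rose 1.29-fold (0.36 ± 0.10, adjusted p = 0.034), but this call ended without FD replicate 1 or 2 or any 1 of the FDI libraries (0.053 to 0.11), and the change was 0.31 (adjusted p = 0.061) after median-of-ratios scaling. The within-library ratio of Wipi1 to Wipi2 was 0.543 ± 0.0974 in Mock, 0.385 ± 0.0322 in FD, 0.230 ± 0.0112 in FDI and 0.371 ± 0.0340 in FDMn (SD, n = 3).

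Atg2a stood at 15.9, 18.3 and 18.2 TPM in Mock, 13.2, 13.1 and 14.6 in FD, 8.35, 8.52 and 8.54 in FDI, and 12.8, 12.2 and 12.3 in FDMn. FDI lay well below the rest. The fall with FD, to 0.779 times the Mock mean (-0.34 ± 0.08, adjusted p = 0.0056), was -0.19 after median-of-ratios scaling and -0.20 after quantile normalization, where it no longer passed (adjusted p = 0.088 and 0.067). With insulin Atg2a fell to 0.622 times the FD mean (-0.62 ± 0.08, adjusted p = 0.00035), and FDMn was 1.47-fold above FDI (0.50 ± 0.08, adjusted p = 0.0013). Its paralog Atg2b stood at 10.8, 8.68 and 9.91 TPM in Mock, 12.02, 11.71 and 13.4 in FD, 11.97, 11.75 and 12.7 in FDI, and 12.6, 12.1 and 11.9 in FDMn. It rose 1.26-fold with FD (0.31 ± 0.09, adjusted p = 0.017), without overlap of the groups, a call that ended without Mock replicate 2 or FD replicate 3 (0.065 to 0.071), and the 3 groups with FD overlapped one another. Exons of Atg2b overlap the opposite-strand gene Gskip, which stood at 4.56 to 6.37 TPM.

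The conjugation genes, which encode the enzymes that process LC3 and couple it to lipid, number 10. Among all genes tested 11.2% rose and 29.9% fell with FD, and 10.2% rose and 4.35% fell with insulin. The shares of all genes that passed were 15.1% with manganese and 17.6% between FDMn and FDI. With FD 2 of the 10 rose and none fell, with insulin 2 rose and none fell, and no gene passed between FDMn and FD (log2 changes from -0.30 to 0.29) or between FDMn and FDI (limma; 2 genes had an unadjusted p under 0.05 in each of these comparisons). Both risers with FD and 1 of those with insulin encode ATG4 proteases, which trim LC3 proteins before conjugation and release them again. Atg4d stood at 10.1, 9.16 and 9.67 TPM in Mock, 11.8, 10.9 and 12.5 in FD, 14.9, 14.3 and 15.4 in FDI, and 14.1, 14.3 and 13.4 in FDMn. It rose 1.22-fold with FD (0.26 ± 0.08, adjusted p = 0.02) and a further 1.27-fold with insulin (0.32 ± 0.08, adjusted p = 0.018), with no overlap between Mock, FD and FDI. The FD call ended without Mock replicate 2 or FD replicate 3 (0.067 to 0.071) and the insulin call without FD replicate 2 or FDI replicate 3 (0.062 to 0.068). Exons of Atg4d overlap the opposite-strand gene Kri1, which stood at 11.3 to 23.1 TPM.

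Atg4c stood at 6.29, 6.08 and 5.25 TPM in Mock and 9.94, 7.78 and 8.26 in FD, and rose 1.47-fold (0.49 ± 0.14, adjusted p = 0.013), a call that ended without Mock replicate 3 or FD replicate 1 (0.053 to 0.056). Its FDI and FDMn values, 6.38 to 8.12 and 6.42 to 9.10 TPM, lay above Mock, and both overlapped FD. Atg16l1, the part of the conjugating complex that places LC3 on the membrane, stood at 14.5, 15.9 and 14.3 TPM in Mock, 15.0, 14.9 and 15.9 in FD, 19.2, 18.4 and 20.2 in FDI, and 17.8, 16.3 and 15.7 in FDMn. FDI lay above all others, and Atg16l1 rose 1.26-fold with insulin (0.32 ± 0.08, adjusted p = 0.017), a call that ended without FD replicate 1 or FDI replicate 3 (0.052 to 0.068).

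The remaining conjugation genes passed in no comparison over all libraries. They are the E1-like enzyme Atg7 (23.8 to 32.7 TPM), the E2-like enzymes Atg3 (42.8 to 52.4) and Atg10 (1.54 to 4.76), the ubiquitin-like protein Atg12 (14.5 to 17.8), its partner Atg5 (15.5 to 26.6), and the proteases Atg4a (9.58 to 14.1) and Atg4b (22.5 to 37.5). The nearest to the threshold was Atg4a between FDMn and FDI, at -0.34 ± 0.11 (adjusted p = 0.051). With FD, Atg10 gave -0.52 ± 0.21 (adjusted p = 0.063) and Atg5 -0.29 ± 0.13 (adjusted p = 0.084). After median-of-ratios scaling Atg4b and Atg12 also passed as higher with FD (0.36 and 0.27, adjusted p = 0.048 and 0.018). Without FD replicate 2 Atg10 passed as lower with FD (-0.63, adjusted p = 0.046), and without FD replicate 1 Atg3 passed as higher with insulin (0.27, adjusted p = 0.032).

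The LC3 family members coat the autophagosome and hold receptors. Of these 5 genes 2 passed with FD, 2 with insulin, 2 with manganese and 3 between FDMn and FDI. Among all genes tested 41.1%, 14.5%, 15.1% and 17.6% passed in these comparisons, so the FD count lay near the share of all genes. The summed TPM of the 5 genes was 659 ± 12.2 in Mock, 761 ± 57.5 in FD, 682 ± 4.58 in FDI and 757 ± 5.78 in FDMn (SD, n = 3). With FD Map1lc3b and Gabarapl1 rose and none fell. With insulin these 2 fell, with manganese Gabarapl1 fell and Map1lc3a rose, and FDMn lay above FDI for all 3.

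Gabarapl1 (chr6:129533160-129542346, plus strand) stood at 161, 155 and 175 TPM in Mock, 218, 199 and 211 in FD, 128, 116 and 129 in FDI, and 168, 178 and 177 in FDMn. FD lay highest, FDI lay lowest, and FDMn lay between them and overlapped Mock. It rose 1.28-fold with FD (0.36 ± 0.06, adjusted p = 0.00082), fell to 0.592 times the FD mean with insulin (-0.75 ± 0.06, adjusted p = 1.4e-05) and to 0.833 times with manganese (-0.26 ± 0.06, adjusted p = 0.017). The manganese call ended without FD replicate 1 or FDMn replicate 1 (0.064 to 0.073). FDMn was 1.41-fold above FDI (0.49 ± 0.06, adjusted p = 0.0003). Gabarapl1 made up 24.8% ± 2.06 of the LC3 family TPM in Mock, 27.6% ± 1.92 in FD, 18.2% ± 0.956 in FDI and 23.0% ± 0.608 in FDMn (SD, n = 3).

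Map1lc3b, the standard LC3 of autophagosome assays, stood at 119.7, 113 and 107 TPM in Mock, 142, 136 and 154 in FD, 122, 118 and 110.3 in FDI, and 143, 139 and 145 in FDMn. FD and FDMn overlapped at a higher level, and Mock and FDI overlapped at a lower one. It rose 1.27-fold with FD (0.34 ± 0.06, adjusted p = 0.001) and fell to 0.812 times with insulin (-0.30 ± 0.06, adjusted p = 0.008). With manganese the change was -0.01 ± 0.06 (adjusted p = 0.93), and FDMn was 1.22-fold above FDI (0.29 ± 0.06, adjusted p = 0.0088). Its exons overlap the opposite-strand gene Zcchc14, which stood at 8.48 to 16.6 TPM.

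Map1lc3a stood at 64.3, 68.6 and 63.7 TPM in Mock, 64.7, 58.7 and 79.6 in FD, 76.3, 66.2 and 72.2 in FDI, and 91.4, 85.7 and 88.0 in FDMn. FDMn lay above all other libraries. It was 1.31-fold above FD (0.39 ± 0.10, adjusted p = 0.017), a call lost when either FD replicate 1 or 2, or FDMn replicate 1, was left out (0.057 to 0.066), and 1.23-fold above FDI (0.30 ± 0.10, adjusted p = 0.048), a call that ended without any 1 of the FDI or FDMn libraries (0.058 to 0.16). The FD change was 0.04 ± 0.10 (adjusted p = 0.79).

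Gabarap stood at 245, 255 and 232 TPM in Mock, 249.9, 247 and 314 in FD, 291, 299 and 302 in FDI, and 286, 289 and 281 in FDMn. FD overlapped every other group, and FD replicate 3 stood far above the other two. Neither Gabarap nor Gabarapl2, which stood at 62.0 to 78.7 TPM over all libraries, passed in any comparison over all libraries. Without FD replicate 3, however, Gabarap passed as higher with insulin (0.26, adjusted p = 0.0053) and with manganese (0.20, adjusted p = 0.019), and after median-of-ratios scaling it passed as higher with FD (0.29, adjusted p = 0.010). The ratio of the paralogs Gabarapl1 and Gabarapl2 within a library was 2.26 ± 0.299 in Mock, 3.01 ± 0.327 in FD, 1.72 ± 0.216 in FDI and 2.64 ± 0.0836 in FDMn (SD, n = 3).

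All 4 receptors changed with FD, 3 upwards and Sqstm1 downwards, although without Mock replicate 3 or FD replicate 1 only 1, Bnip3l, passed upwards. Among all genes tested 11.2% rose and 29.9% fell with FD. Sqstm1 (chr11:50199366-50210827, minus strand) encodes p62, which binds ubiquitinated cargo and LC3 and is itself degraded by autophagy, and its gene is a target of NRF2. It stood at 1819, 2028 and 1728 TPM in Mock, 785, 807 and 867 in FD, 1192, 1157 and 1101 in FDI, and 1197, 1183 and 1140.1 in FDMn. Mock was highest and FD lowest, and FDI and FDMn overlapped between them. Sqstm1 fell to 0.441 times the Mock mean with FD (-1.18 ± 0.06, adjusted p = 2.6e-08), the largest fall among the 36 genes. It rose 1.40-fold with insulin (0.49 ± 0.06, adjusted p = 0.00031) and 1.43-fold with manganese (0.52 ± 0.06, adjusted p = 0.00024). FDMn and FDI differed by 0.03 ± 0.06 (adjusted p = 0.80). The opposite-strand overlapping gene Mrnip stood at only 0.574 to 1.58 TPM.

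Nbr1 (chr11:101552149-101581951, plus strand), a receptor that works beside p62, stood at 33.0, 39.9 and 35.0 TPM in Mock, 43.7, 42.2 and 47.6 in FD, 19.1, 24.3 and 21.6 in FDI, and 32.8, 40.0 and 35.8 in FDMn. FD lay highest, FDI lay far below all others, and FDMn covered the Mock range. Nbr1 rose 1.24-fold with FD (0.30 ± 0.10, adjusted p = 0.035), a call that ended without Mock replicate 1, Mock replicate 3, FD replicate 1 or FD replicate 3 (0.063 to 0.12). With insulin it fell to 0.487 times the FD mean (-1.01 ± 0.10, adjusted p = 6e-05), the largest insulin change among the 36 genes. The manganese change of -0.29 ± 0.10 did not pass (adjusted p = 0.081), and FDMn was 1.67-fold above FDI (0.72 ± 0.10, adjusted p = 0.00062).

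Bnip3l, which encodes the mitophagy receptor NIX, stood at 167, 159.5 and 163 TPM in Mock, 229, 256 and 194 in FD, 179, 168 and 186 in FDI, and 186, 203 and 217 in FDMn. Mock was lowest, and FDMn overlapped FD. It rose 1.39-fold with FD (0.46 ± 0.09, adjusted p = 0.0015) and fell to 0.786 times with insulin (-0.34 ± 0.09, adjusted p = 0.027), the insulin call ending without FD replicate 1, FD replicate 2, FDI replicate 1 or FDI replicate 2 (0.067 to 0.091). The manganese change was -0.15 ± 0.09 (adjusted p = 0.29), and without FD replicate 3 it was -0.26 and passed (adjusted p = 0.035).

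Optn, the receptor optineurin, stood at 50.1, 41.3 and 41.9 TPM in Mock and 59.7, 51.1 and 50.1 in FD. It rose 1.21-fold (0.27 ± 0.09, adjusted p = 0.032), although the highest Mock value reached the lowest FD value, and the call ended without Mock replicate 2, Mock replicate 3 or FD replicate 1 (0.10 to 0.12). With 49.5 to 52.6 TPM in FDI the insulin change was -0.06 ± 0.09 (adjusted p = 0.72), and with 41.3 to 46.6 TPM in FDMn the manganese change was -0.28 ± 0.09 (adjusted p = 0.059), or -0.32 without FD replicate 3, where it passed (adjusted p = 0.044). The Nbr1 to Optn ratio was 0.820 ± 0.154 in Mock, 0.836 ± 0.110 in FD, 0.422 ± 0.0438 in FDI and 0.823 ± 0.0723 in FDMn (SD, n = 3), lowest in the FDI libraries.

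Tfeb, which encodes a transcription factor of lysosome and autophagy genes that is controlled mainly by its location in the cell, was the least abundant of the 36. It stood at 3.87, 3.36 and 2.84 TPM in Mock, 2.31, 3.49 and 1.86 in FD, 1.77, 4.14 and 1.75 in FDI, and 2.35, 1.51 and 1.68 in FDMn. All groups but Mock and FDMn overlapped, and FDI replicate 2 stood far above its 2 partners. The log2 changes were -0.31 ± 0.25 for FD (adjusted p = 0.34), -0.04 ± 0.25 for insulin (adjusted p = 0.93), -0.30 ± 0.25 for manganese (adjusted p = 0.45) and -0.26 ± 0.25 between FDMn and FDI (adjusted p = 0.52). With an SE of 0.25 and at these low levels, where log2(TPM + 1) understates a change, moderate differences were not detectable.

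**Figure D3:**
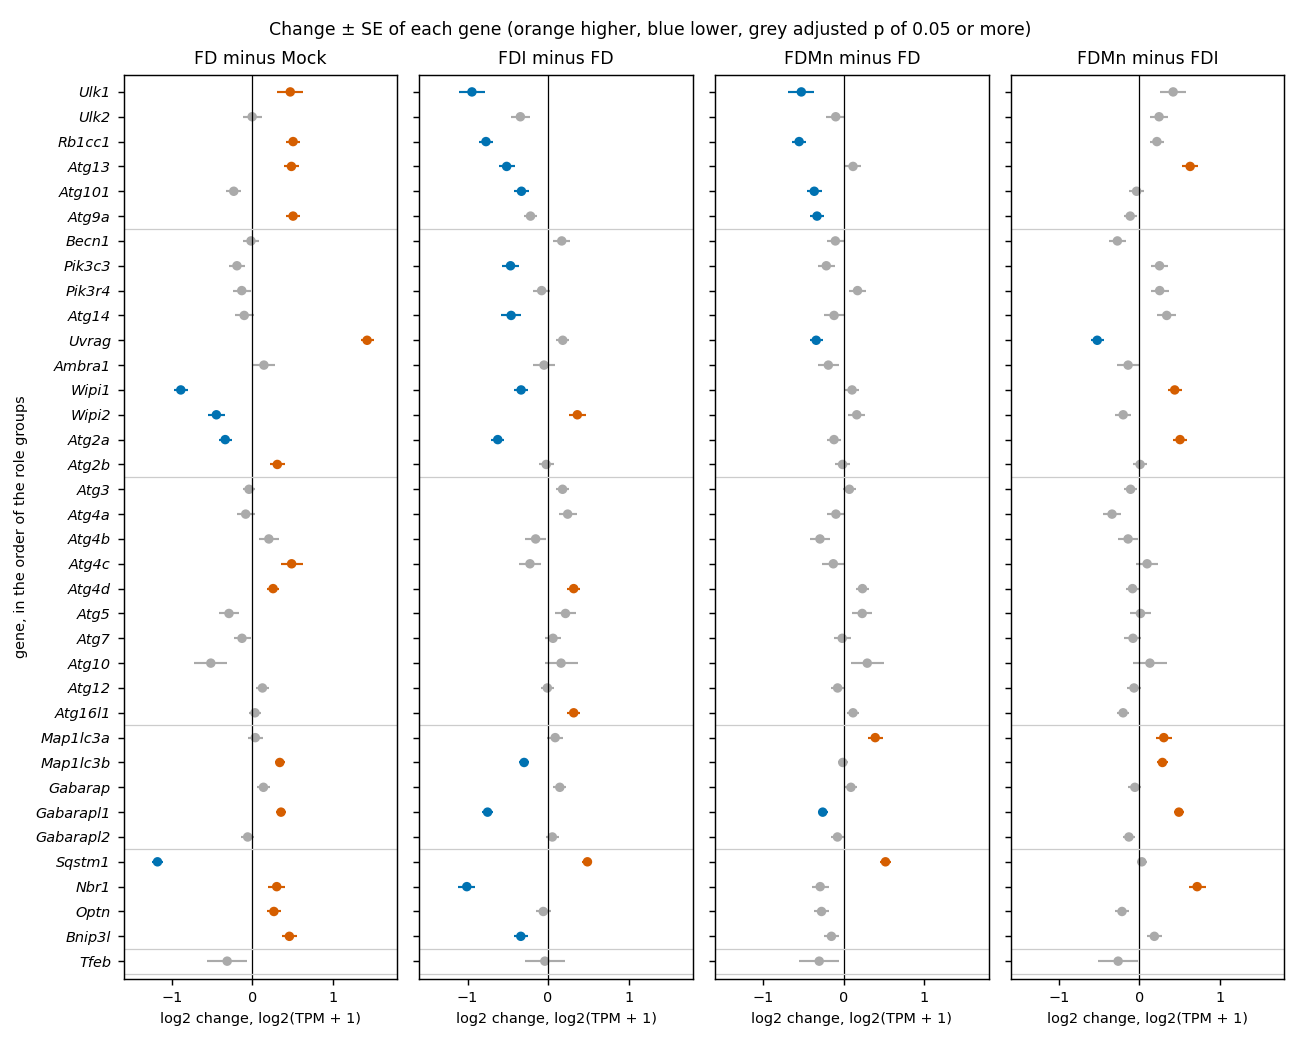
Log2 change ± SE of each of the 36 genes (rows, in role order) in the 4 comparisons (panels), orange where higher and blue where lower at an adjusted p under 0.05, grey otherwise. Ulk1, Rb1cc1, Atg13 and Atg9a at the top are orange for FD, and Ulk1, Rb1cc1, Atg13 and Atg101 are blue for insulin. Uvrag (1.42) and Sqstm1 (-1.18) lie farthest from 0 for FD.

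Set side by side, the calls of the 16 genes that changed with insulin read as follows. Ulk1, Rb1cc1, Atg13, Gabarapl1, Map1lc3b, Nbr1 and Bnip3l rose with FD and fell with insulin, and Sqstm1 and Wipi2 fell with FD and rose with insulin. Wipi1 and Atg2a fell in both and Atg4d rose in both, while Atg101, Pik3c3, Atg14 and Atg16l1 passed with insulin and not with FD. Because both comparisons use the FD libraries, opposite signs are favoured by their shared error. Of these 16 genes, Nbr1, Atg13, Atg2a, Gabarapl1, Wipi1 and Map1lc3b were higher in FDMn than in FDI, and no other passed in that direct test.

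Related genes outside the list, 119 in 8 lists of which 118 passed the filter, were counted in the same fit. Among all genes tested 11.2% were higher and 29.9% lower with FD, and 10.2% and 4.35% with insulin. These shares were 7.22% and 7.9% with manganese, and 5.68% and 11.9% between FDMn and FDI. Among 15 other autophagy receptors 4 rose and 2 fell with FD. Retreg1, the receptor for endoplasmic reticulum known as FAM134B, rose 5.58-fold from 43.3 ± 1.86 to 241 ± 7.41 TPM (2.45, adjusted p = 1.1e-11), and Bnip3, the partner gene of Bnip3l, rose 2.59-fold from 89.4 ± 10.4 to 232 ± 24.3 TPM (1.37, adjusted p = 6.8e-07). Ncoa4, the ferritin receptor, rose 1.44-fold (0.52, adjusted p = 0.0002), while Stbd1, which binds glycogen, fell from 72.6 ± 4.98 to 48.2 ± 5.29 TPM (-0.58, adjusted p = 0.00012). With insulin 5 of the 15 fell and 2 rose: Calcoco1 fell from 24.1 ± 1.76 to 13.2 ± 0.324 TPM (-0.82, adjusted p = 5.3e-05), Ccpg1 fell (-0.45, adjusted p = 0.0015) and Stbd1 rose to 92.8 ± 3.93 TPM (0.93, adjusted p = 1.7e-05). With manganese 3 fell and 1 rose, among them Retreg1, which fell to 183 ± 7.68 TPM (-0.40, adjusted p = 0.00061), and Ccpg1 (-0.36, adjusted p = 0.0062). Between FDMn and FDI 2 were higher, led by Calcoco1 (0.59, adjusted p = 0.00051), and 2 were lower, led by Stbd1 (-0.64, adjusted p = 0.00025). Under both other scalings the falls with FD, the rises with insulin and the genes lower in FDMn than in FDI numbered 1 each.

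Among 10 further core factors 2 rose and 2 fell with FD, 3 fell with insulin, 2 fell with manganese and 1 was higher in FDMn than in FDI, the last a count of 3 after quantile normalization. The weaker manganese call, for Trp53inp1 (-0.26, adjusted p = 0.043), was lost when any 1 of the FD or FDMn libraries was left out (adjusted p up to 0.12), which left 1. Trp53inp1, whose product binds LC3 and GABARAP proteins, rose 2.40-fold with FD from 65.2 ± 2.91 to 157 ± 5.10 TPM (1.25, adjusted p = 1.1e-07), fell to 87.7 ± 10.2 TPM with insulin (-0.83, adjusted p = 2.6e-05) and was higher in FDMn than in FDI (0.58, adjusted p = 0.00037). Vmp1, a membrane protein needed for the early autophagosome, fell from 106 ± 2.43 TPM in FD to 87.9 ± 0.763 with insulin and 88.3 ± 1.77 with manganese (-0.27, adjusted p = 0.0026, and -0.26, adjusted p = 0.003). Of 14 genes for fusion with the lysosome 2 rose and 1 fell with FD, 1 rose with insulin, 2 fell with manganese, led by the fusion protein gene Snap29 (-0.35, adjusted p = 0.011), and 3 were lower in FDMn than in FDI. The insulin count became 1 higher and 2 lower after median-of-ratios scaling and 0 and 2 after quantile normalization. Between FDMn and FDI it became 1 higher and 1 lower under both, and 1 to 3 were lower with single libraries left out. Of the 3 genes for the mitophagy kinase and its ligases, 0 passed with FD and 0 with insulin (limma; 1 each at an unadjusted p under 0.05), 0 between FDMn and FDI (also 0 unadjusted), and 1, Pink1, fell with manganese (-0.22, adjusted p = 0.043), a call that ended when any 1 of the FD or FDMn libraries was left out (adjusted p up to 0.12). After median-of-ratios scaling the FD counts became 3 higher and 0 lower for the core factors and 5 and 0 for fusion.

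Of the upstream kinases, 9 of 25 genes of mTORC1 and its regulators rose and 7 fell with FD, where 11.2% of all genes rose and 29.9% fell. These counts were 10 and 4 after median-of-ratios scaling and 9 and 5 after quantile normalization. In the same list 4 rose and 1 fell with insulin, against 10.2% and 4.35% of all genes. With manganese 1 rose and 2 fell, against 7.22% and 7.9%. Between FDMn and FDI 1 was higher and 3 were lower, against 5.68% and 11.9%. The manganese rise, of Sesn2 (0.28), was lost in 8 of 15 alternatives, among them each left-out library (adjusted p up to 0.12). The gene higher in FDMn than in FDI, Sesn1 (0.35), lost its call in 9 of 15 (adjusted p up to 0.17). Sesn1, an inhibitor of mTORC1, rose 4.10-fold with FD from 2.98 ± 0.253 to 12.2 ± 1.09 TPM (1.73, adjusted p = 1.6e-07), fell to 5.19 ± 0.573 with insulin (-1.09, adjusted p = 5.8e-05) and to 6.89 ± 0.629 with manganese (-0.74, adjusted p = 0.001). Its paralog Sesn2 rose with insulin from 13.2 ± 0.323 to 29.0 ± 2.19 TPM (1.07, adjusted p = 4.7e-06). Ddit4, another inhibitor, rose with FD from 19.2 ± 0.45 to 43.0 ± 4.77 TPM (1.12, adjusted p = 2.5e-06) and again with insulin to 65.8 ± 6.00 TPM (0.60, adjusted p = 0.0017). Fnip1 and Flcn, which form the complex that lets mTORC1 act on TFEB, rose with FD (0.89 and 0.72, adjusted p = 4e-05 and 7.7e-05). Of the 6 AMPK subunits Prkab2 rose with FD from 14.5 ± 0.72 to 26.6 ± 0.474 TPM (0.83, adjusted p = 1.4e-05) and Prkag2 fell (-0.39, adjusted p = 0.017), the latter call ending without Mock replicate 2, FD replicate 2 or FD replicate 3 (adjusted p up to 0.12). The Prkag2 call also ended after median-of-ratios scaling and after quantile normalization, where 0 AMPK subunits were lower with FD. None of the 6 passed with insulin, with manganese or between FDMn and FDI (limma; 1, 2 and 0 at an unadjusted p under 0.05).

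Of 15 genes listed as transcription factors of autophagy genes, a list that also holds the ubiquitin ligase gene Fbxo32, 4 rose and 4 fell with FD. Ppara, the fatty acid receptor that directs the fasting response of the liver, rose 15.5-fold from 2.13 ± 0.325 to 33.0 ± 4.89 TPM (3.44, adjusted p = 1.2e-09). Foxo1 rose 4.25-fold (1.90, adjusted p = 7.7e-09) and Foxo3 2.32-fold from 8.23 ± 1.17 to 19.1 ± 1.62 TPM (1.13, adjusted p = 3.2e-06). The genes that fell with FD were Ddit3 (-1.31), Mitf (-0.77), Fbxo32 (-0.62) and Crtc2 (-0.50). The Ddit3 rises with insulin and manganese given below therefore start from a level lower than in Mock. FDI and FDMn were not tested against Mock. With insulin 3 rose and 1 fell. The fall, of Nfe2l2 (-0.20, adjusted p = 0.038), was lost when any 1 of the FD or FDI libraries was left out (adjusted p up to 0.11). The rises were led by the stress factors Ddit3, from 13.2 ± 2.33 to 82.2 ± 5.15 TPM (2.57, adjusted p = 2.1e-06), and Atf4, from 176 ± 4.21 to 327 ± 13.6 TPM (0.89, adjusted p = 4.4e-06). With manganese 3 rose and 1 fell: Ddit3 rose to 38.6 ± 2.45 TPM (1.495, adjusted p = 0.00014) and Atf4 to 231 ± 4.51 TPM (0.39, adjusted p = 0.0019). Of 3 genes lower in FDMn than in FDI, with none higher, these were 2 (-1.07, adjusted p = 0.0011, and -0.50, adjusted p = 0.00029).

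Of 30 lysosome genes 10 rose and 0 fell with FD, a count of 21 after median-of-ratios scaling and 16 after quantile normalization; no lysosome gene was called lower under either. They were led by the glycosidase gene Gla, from 5.39 ± 0.296 to 14.2 ± 1.03 TPM (1.25, adjusted p = 6.3e-07), and the proton pump subunit Atp6v1b2, from 19.1 ± 0.446 to 36.2 ± 2.30 TPM (0.88, adjusted p = 1.9e-06). With insulin 1 rose and 3 fell, and with manganese 6 rose and 4 fell, the lipase gene Lipa among those that fell in both (-0.43, adjusted p = 0.0027, and -0.36, adjusted p = 0.0077). With single libraries left out these counts were 0 to 2 higher and 1 to 3 lower with insulin, and 3 to 6 and 1 to 5 with manganese. Between FDMn and FDI 3 lysosome genes were higher and 1 lower, a count of 5 and 0 after median-of-ratios scaling, 7 and 0 after quantile normalization, and 1 to 2 and 0 to 1 with single libraries left out. The insulin count became 0 and 4 under the first of these scalings and 0 and 6 under the second.

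**Figure D4:**
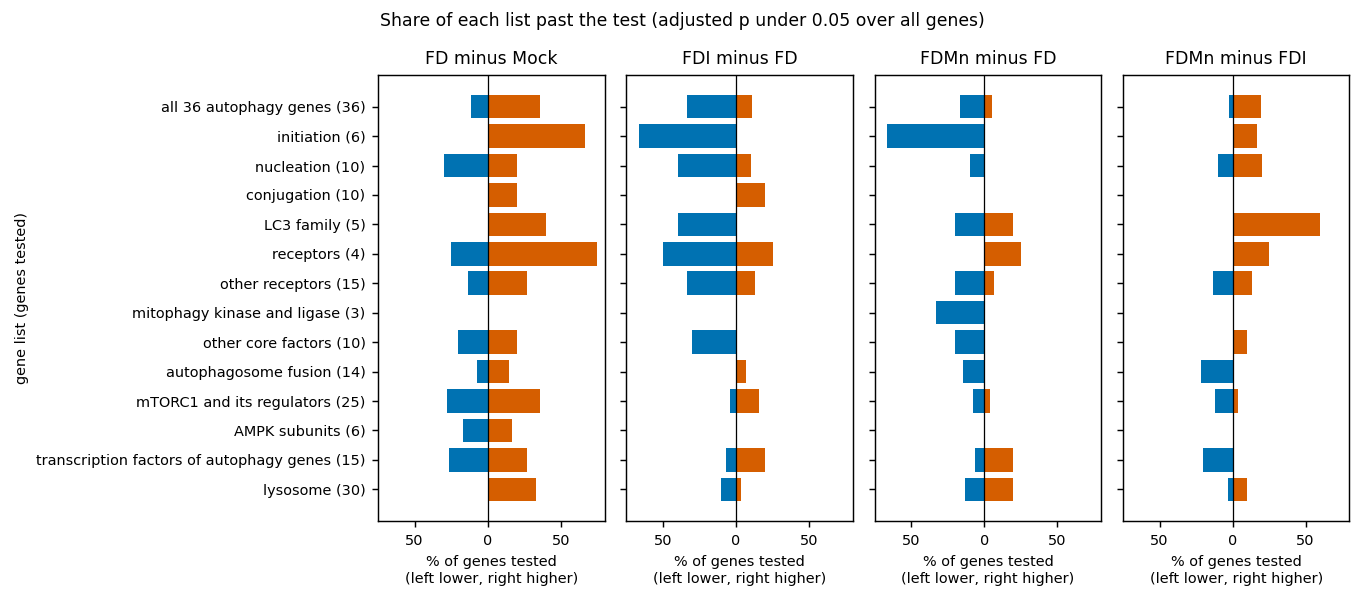
Share of each gene list, in percent of its genes tested, that passed as higher (orange, right) or lower (blue, left) in the 4 comparisons; the number tested stands beside each name. Initiation shows 4 of 6 genes higher for FD and 4 of 6 lower for both insulin and manganese, and lysosome 10 of 30 higher for FD. Among all genes tested 11.2% were higher for FD, and 4.35% and 7.9% were lower for insulin and manganese.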

How the data were processed

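The authors deposited gene-level TPM for 12 libraries; kallisto 0.44.0, GRCm38.p6 and DESeq2 are listed, with no roles, per the submitters' processing notes. How transcripts were summed and whether strand was used is not given in the sources used here. TPM keeps no read number, so depth per sample is unknown and no counting interval is given. Groups and replicate numbers came from the sample titles. The 11544 of 36144 genes that reached 1 TPM in 3 or more of the 12 libraries were tested as log2(TPM + 1) with limma 3.58.1 in R 4.3.3, all 4 groups in 1 fit with a trend in the prior variance, two-sided, Benjamini-Hochberg over genes tested, threshold 0.05; the script was tested on simulated data. Folds are ratios of mean TPM. Same-numbered replicates showed no sign of pairing (correlation of their deviations from -0.0976 to 0.0684), but such correlations cannot show that there was none. Gene coordinates came from GENCODE release 21 for mouse; 11 of the 36 genes share exons with another gene. The members and lists were chosen with earlier results of these data known. Named genes were all 36, with full statistics for up to 12 called members per comparison, Tfeb and Sqstm1, and of each related list up to 4 genes with the smallest adjusted p. Alternatives were the pseudocount, filter, scaling, replicate block, groups in the fit, prior trend and leaving out each library.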

Additional observations from a re-analysis of the deposited data

How the results depend on the processing

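No change of the 36 genes reversed its direction once called. Under 15 alternatives, 10 of 17 calls with FD, 8 of 16 with insulin, 2 of 8 with manganese (Rb1cc1 and Sqstm1) and 7 of 8 between FDMn and FDI passed in every one. Fitting only the groups compared gave 1 higher and 7 lower with insulin (4 and 12 as reported), 1 higher with manganese (2 as reported) and 4 lower between FDMn and FDI (1 as reported). That last count was 2 with a filter of 5 TPM. Fitting only the groups compared also ended the FD calls of Ulk1, Atg2b, Atg4d and Optn (adjusted p = 0.069 to 0.091). With manganese it ended those of Ulk1 and Atg9a (adjusted p = 0.052 and 0.060). Leaving out single libraries gave 9 to 13 higher and 4 to 5 lower with FD, 1 to 6 and 8 to 12 with insulin, 1 to 3 and 1 to 7 with manganese, and 6 to 7 and 1 to 1 between FDMn and FDI. With the replicate number as a block, genes lower in FDMn than in FDI were 2. Whether the replicate numbers pair the samples is not known. The cause of these shifts was not tested. The number of 3 libraries a group and the unknown depth limit the precision of low genes such as Tfeb, Atg10 and Atg14.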
